A study of Homo sapiens with 12 samples.

Results

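Recovered cells (RC) were A375 cells, an established human skin melanoma line, that had received the BRAF inhibitor vemurafenib (500 nM) together with the MEK inhibitor cobimetinib (500 nM) for 72 h and had then grown for 9 days without drug. They were compared with control cells (CC), the same line given the solvent DMSO for 72 h. The comparison took in all genes of 3 RC and 3 CC libraries, 6 of the 12 libraries of the series. The other libraries were treated cells (TC), harvested at the end of the 72 h of both inhibitors, and persister cells (PC), harvested after 2 days without drug. TC and PC entered the fit and are given here as levels beside RC and CC. The question was what stayed changed after recovery.

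RNA came from the cytoplasmic fraction and ribosomal RNA was depleted before sequencing. CC were harvested at the end of the 72 h, whereas RC were harvested 9 days later and were passed when necessary during that time. No DMSO culture of the RC harvest day was analysed here. Earlier drug exposure, harvest day and passage therefore cannot be told apart in any RC and CC difference below. The labels give replicate numbers and do not say that replicates were separate thaws, so the p-values measure the spread between cultures. That spread was estimated over all 12 libraries, TC and PC included. Total counts ran from 40430417 to 47497943 in CC and from 39986451 to 55263060 in RC.

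A375 cells carry an activated BRAF, which signals through MEK to ERK and drives transcription of cell cycle and feedback genes. Inhibition of this cascade stops most melanoma cells in the cell cycle, and cells that survive can take on features of the neural crest, the embryonic origin of melanocytes. Such drug tolerance is known to be reversible in culture once the inhibitors are withdrawn.

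Of 44659 genes in the table, 15916 passed the filter on low counts (a mean count of at least 10 over the 12 libraries, scaled to library size). At an adjusted p under 0.05 (edgeR quasi-likelihood test, Benjamini-Hochberg over all genes tested), 2900 genes were higher in RC (18.2% of those tested) and 3042 were lower (19.1%). Most of these differences were small, with a median size of 0.52 on the log2 scale. When the difference had to exceed 1.5-fold (edgeR glmTreat, adjusted p of at most 0.05), 215 genes were higher (1.35% of those tested) and 401 were lower (2.52%). These 616 genes had a median absolute log2 fold change of 1.37. A difference over 4-fold was found for 37 of the genes higher and for 85 of the genes lower. In 6 of the 616 genes no CC library had more than 3 counts and in 5 no RC library did, and no fold is given for those.

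All 3 RC libraries lay above all 3 CC libraries in 23.7% of tested genes and below them in 23.5%. Each of the 215 and 401 genes was without overlap. Levels were low for many of them: 33 of the genes higher and 67 of the genes lower had a mean under 1 CPM (TMM-scaled counts per 1000000) over CC and RC. By RefSeq biotype, 173 of 12695 protein-coding genes were higher beyond 1.5-fold and 350 were lower, against 25 and 33 of 1613 long non-coding RNA genes.

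**Figure D1:**
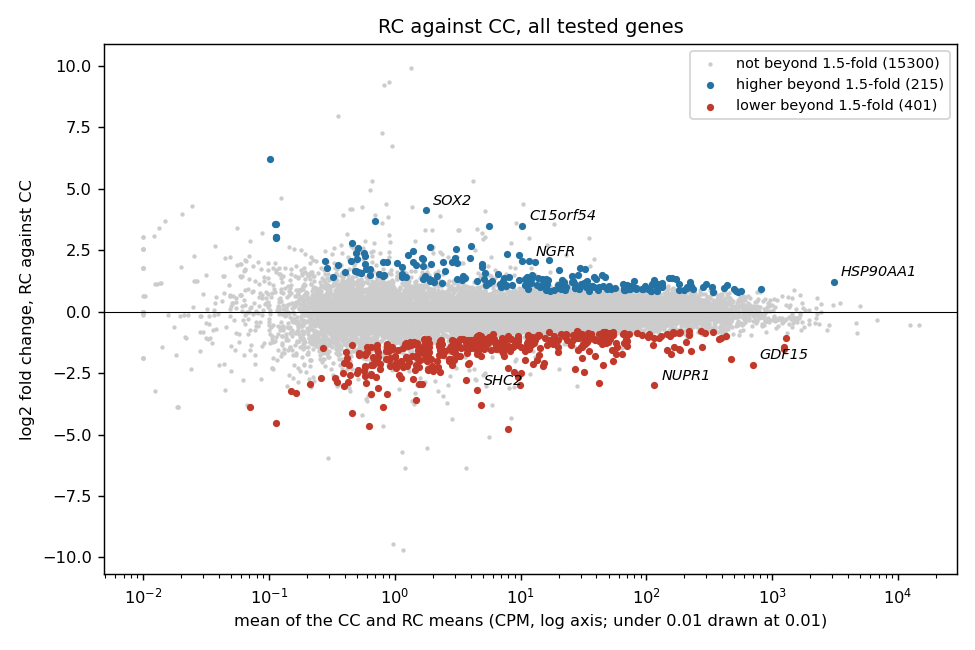
Log2 fold change of RC against CC for each of the 15916 tested genes (y axis) against the mean of its CC and RC means in CPM (x axis, log scale). The 215 genes higher beyond 1.5-fold (blue) and the 401 lower (red) lie outside the dense grey band around 0 across the range of levels, and grey points with larger folds did not pass the test; SOX2 and C15orf54 are labelled above and SHC2 and NUPR1 below.

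CC libraries differed among themselves more than RC libraries did, with a fitted biological coefficient of variation of 0.232 in CC, 0.179 in TC, 0.150 in PC and 0.155 in RC. The range over 3 libraries had a median of 0.38 on the log2 scale in CC and 0.17 in RC. It exceeded 2-fold in 1651 tested genes in CC (10.4%) and in 791 in RC (4.97%). Of the 438 genes with at least 1 CPM in each CC library and a CC range over 2-fold, CC replicate 3 was the farthest from the middle library in 263, replicate 2 in 117 and replicate 1 in 58. On the first principal component of the 6 libraries (48.4% of the variance) CC lay between -44.4 and -24.7 and RC between 30.1 and 37.4, while on the second (18.9%) CC spread from -42.2 to 30.4 and RC from -2.58 to 1.59.

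**Figure D2:**
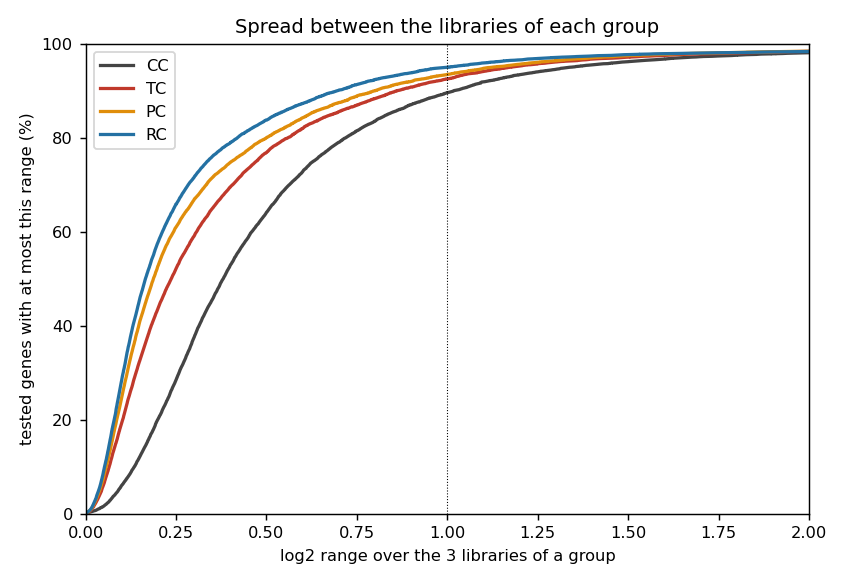
Cumulative share of the 15916 tested genes (y axis, %) whose log2 range over the 3 libraries of a group is at most the value on the x axis, for CC, TC, PC and RC; the dotted line marks 2-fold. The CC curve lies to the right of the others, with 10.4% of genes beyond 2-fold against 4.97% in RC.

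The gap between the nearest CC and RC libraries was wider than the CC range in 193 of the 215 genes higher and in 346 of the 401 genes lower. Both sets were called on these same libraries, which favours wide gaps, so these counts are a description only. The CC range itself exceeded 2-fold in 13 of the 215 genes higher and in 38 of the 401 genes lower. Leaving out some single libraries moved counts beyond 1.5-fold by over 1.5 times. Without CC replicate 1 there were 128 higher and 249 lower genes, without RC replicate 1 there were 124 and a number equal to 1.58% of tested genes, and without RC replicate 2 there were 117 and 226. Without CC replicate 2 there were 376 higher genes, and 524 lower genes, the latter within 1.5 times. Counts also stayed within 1.5 times without CC replicate 3 (225 higher and 432 lower) and without RC replicate 3 (179 and 330). The widest CC ranges among well-counted genes were those of UBE2A (12.8, 22.2 and 0.275 CPM in replicates 1 to 3), GMPR2 (25.2, 25.6 and 0.550 CPM), RPS2 (118, 3.14 and 69.7 CPM) and the numbered copies PSMB3_1, CD99_1 and DNAJA3_1. RC libraries also varied widely in these genes, for example 11.5, 0.534 and 19.3 CPM of UBE2A, and none of the 6 passed the test. Whether these jumps came from reads that match a copy elsewhere was not tested. Of the tested entries 532 were numbered copies, of which 9 were called beyond 1.5-fold.

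A first group of genes was higher in RC than in CC and was far higher in TC and PC. SOX2, a stem cell and neural progenitor transcription factor, had 0.148, 0.316 and 0.106 CPM in CC and 3.20, 3.56 and 3.31 CPM in RC. Its level was between 63.3 and 119 CPM in TC and PC. All RC libraries lay at least 10-fold above the highest CC library (log2 fold change 4.13, SE 0.25, edgeR adjusted p 2.2e-06). NGFR, the low-affinity nerve growth factor receptor and a marker of neural crest cells, had 5.68, 4.52 and 3.41 CPM in CC and 21.9, 18.9 and 15.3 CPM in RC (log2 fold change 2.05, SE 0.19, adjusted p 2.9e-05). Its TC libraries held from 3572 to 5205 CPM and its PC libraries from 6002 to 6673 CPM, so RC was close to CC on that scale but did not overlap it.

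The receptor gene FLT1, which binds vascular endothelial growth factors, had 3.36, 3.86 and 4.49 CPM in CC and 18.9, 16.2 and 14.4 CPM in RC, against 133 to 147 CPM in PC. FLT1 did not overlap between the groups (log2 fold change 2.07, SE 0.12, adjusted p 2.2e-06). AXL, a receptor tyrosine kinase known from drug-tolerant melanoma, had 7.25, 6.28 and 7.34 CPM in CC, 17.5, 16.6 and 12.7 CPM in RC and 94.1 to 134 CPM in PC. AXL was higher in RC than in CC (log2 fold change 1.16, SE 0.20, adjusted p 0.00090). In each of these receptors the RC libraries were above every CC library and below every PC library.

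The same order of levels, CC below RC and RC below TC and PC, held for LYPD1, SYNC, LINC02732, SPOCK1 and IL7R. LYPD1 encodes a membrane-anchored protein of the Ly6 family, and it had 0.740, 1.15 and 0.804 CPM in CC and 5.69, 5.25 and 4.73 CPM in RC (log2 fold change 2.53). SYNC, which encodes the intermediate filament protein syncoilin, rose from between 0.888 and 1.40 CPM to between 6.68 and 7.33 CPM (log2 fold change 2.65). LINC02732 (2.16), the proteoglycan gene SPOCK1 (2.01) and the interleukin 7 receptor gene IL7R (2.01) had RC levels between 2.95 and 5.61 CPM. THBS1, which encodes the matrix protein thrombospondin 1, had the highest CC and RC levels of this group, 151, 162 and 169 CPM in CC and 334, 301 and 282 CPM in RC, against 1848 to 2218 CPM in PC.

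Other genes were higher in RC than in CC and did not stand below TC and PC. C15orf54 had 1.11, 1.87 and 2.01 CPM in CC and 19.5, 18.05 and 18.95 CPM in RC, with 16.4 to 19.4 CPM in PC, overlapping RC (log2 fold change 3.49, SE 0.20, adjusted p 2.2e-06). MMP8, the neutrophil collagenase, had 3.90, 7.43 and 4.21 CPM in CC and 21.6, 21.6 and 19.7 CPM in RC, while TC held between 0.653 and 1.15 CPM. The long non-coding RNA LINC02119 had 7.01, 6.84 and 5.33 CPM in CC and 26.6, 30.3 and 25.0 CPM in RC, with 2.89 to 4.42 CPM in TC and PC. MMP8 and LINC02119 were therefore above CC in RC and below CC in TC and PC.

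ITGB8, an integrin subunit that activates latent TGF-beta, had 74.6, 93.7 and 100.4 CPM in CC and 239, 241 and 217 CPM in RC, against 109 to 131 CPM in TC and PC (log2 fold change 1.37, SE 0.10, adjusted p 7.0e-06). The fibrillar collagen gene COL27A1 had 6.19, 5.38 and 7.004 CPM in CC, 15.9, 16.3 and 13.7 CPM in RC and at most 8.51 CPM in TC and PC. ZNF850, a zinc finger gene, rose from between 2.03 and 2.49 to between 7.26 and 8.31 CPM. In ITGB8, COL27A1 and ZNF850 the RC libraries lay above those of each other group. ADAM19, a membrane-bound metalloprotease gene, had 3.28, 3.57 and 2.94 CPM in CC and 17.8, 16.1 and 14.1 CPM in RC, within the TC range of 12.2 to 22.2 CPM and below the PC range of 52.4 to 56.3 CPM.

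Among the 15 largest rises were also IBTK, SLC19A1 and CORO1A, whose libraries varied more. IBTK had 8.08, 13.1 and 18.1 CPM in RC and shares its name with a numbered copy that was at 4.84 CPM in RC replicate 2 and at most 0.0246 CPM in the other CC and RC libraries. SLC19A1, the reduced folate carrier, had 2.00, 0.904 and 1.35 CPM in CC and 4.70, 6.28 and 8.45 CPM in RC. CORO1A had a CC range from 0.469 to 2.01 CPM. All 3 were called beyond 1.5-fold without overlap.

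**Figure D3:**
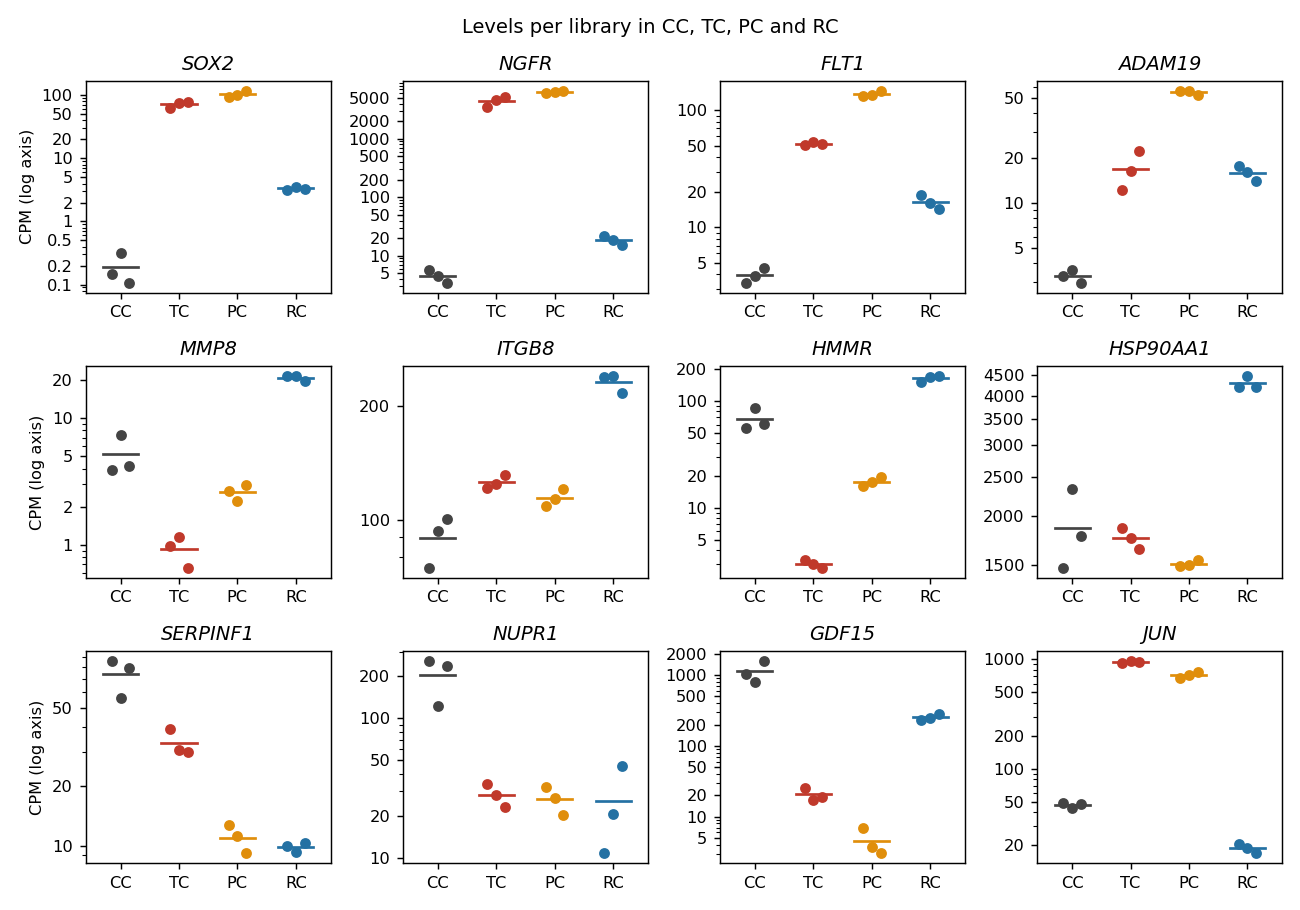
CPM (log axes, 1 panel per gene) of 12 named genes in each library of CC, TC, PC and RC; points are libraries and lines are group means. SOX2, NGFR, FLT1 and ADAM19 lie between CC and PC in RC; MMP8, ITGB8, HMMR and HSP90AA1 are highest in RC; SERPINF1, NUPR1 and GDF15 are below CC in TC, PC and RC; JUN is at 936 to 968 CPM in TC and at 16.8 to 20.6 CPM in RC.

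The largest falls were of several kinds. SERPINF1, which encodes the secreted pigment epithelium-derived factor, had 85.9, 55.7 and 79.4 CPM in CC and 10.1, 9.34 and 10.4 CPM in RC (log2 fold change -2.89, SE 0.18, adjusted p 2.2e-06). Its RC libraries overlapped the PC range of 9.20 to 12.8 CPM. ATP1B2, a sodium pump subunit gene, had 24.7, 16.6 and 11.9 CPM in CC and 2.39, 1.71 and 2.52 CPM in RC, overlapping TC (1.99 to 2.72 CPM). For SERPINF1 the RC libraries lay below TC, and for ATP1B2 they lay above PC.

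HGF, the ligand of the MET receptor, had 15.2, 16.6 and 13.2 CPM in CC and 2.73, 2.81 and 2.69 CPM in RC, and at most 0.242 CPM in TC and PC. The homeobox gene HLX had 55.0, 41.8 and 64.6 CPM in CC and 8.79, 8.45 and 12.4 CPM in RC, and at most 2.197 CPM in TC and PC. JUP, the junction protein plakoglobin, had 55.7, 41.3 and 38.3 CPM in CC and 9.23, 8.01 and 9.74 CPM in RC. TF, which encodes the iron carrier transferrin, had 80.6, 66.4 and 77.1 CPM in CC and 17.9, 13.99 and 17.2 CPM in RC, with 5.18 to 6.88 CPM in PC. In HGF, HLX, JUP and TF the RC libraries lay above PC and below CC. LMTK3 (log2 fold change -2.46) and SULT1C2 (-2.27) fell at lower levels, with RC libraries at or under 0.854 CPM that overlapped PC.

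Some genes were lower in RC than in every TC and PC library as well as in every CC library. The adaptor gene SHC2 had 9.55, 6.01 and 8.61 CPM in CC, 33.7 to 41.1 CPM in TC and 0.862, 0.872 and 0.870 CPM in RC, and its log2 fold change of -3.21 (SE 0.18, adjusted p 2.2e-06) was the largest fall under the naming rule. IFITM1, an interferon-induced membrane protein gene, had 7.72, 6.53 and 5.02 CPM in CC and 0.689, 0.997 and 1.08 CPM in RC, with 6.89 to 7.26 CPM in TC and 4.26 to 6.31 CPM in PC, both overlapping CC. TM7SF2, a sterol reductase gene, had 25.9, 20.4 and 18.5 CPM in CC, 35.0 to 64.7 CPM in TC and PC and 5.05, 5.29 and 6.35 CPM in RC. In SHC2 and TM7SF2 the CC libraries therefore lay between RC and the drug-treated groups.

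Most genes of the mitotic, replication and recombination lists were higher in RC. Mitotic genes (kinases, kinesins, kinetochore and spindle proteins) were higher in RC for 37 of 40 tested members and lower for 0, with a median log2 fold change of 0.73, beside 18.2% higher and a median of 0.00 over all genes tested. Beyond 1.5-fold, 8 of the 40 were higher, beside 1.35% of all genes tested. In 39 of the 40 all RC libraries were above all CC libraries, beside 23.7% of all genes tested. The median per library, relative to the CC mean, was 0.69, 0.77 and 0.74 in RC and -0.11, 0.26 and -0.13 in CC.

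HMMR, a spindle-associated hyaluronan receptor, had 56.1, 85.7 and 60.4 CPM in CC and 151, 167 and 172 CPM in RC (log2 fold change 1.28, SE 0.14, adjusted p 5.5e-05), and 2.72 to 3.21 CPM in TC. CCNA2, the cyclin A gene of S phase and mitosis, had 71.7, 96.2 and 69.0 CPM in CC and 169, 163 and 164 CPM in RC (log2 fold change 1.07). The kinetochore genes SPC24 (1.20) and CENPI (1.09) completed the largest rises of this list. CC replicate 2 was the highest CC library for all 4 genes, and none of its values reached an RC library. SPC25, a partner of SPC24 in the kinetochore, could not be read, since it had at most 1.17 CPM under its own name while its numbered copy held 12.8, 3.22 and 14.96 CPM in RC.

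Promoters of HMMR, SPC24 and CCNA2 are shown as those of the 4 genes above that hold letters known from late cell cycle promoters, and they were chosen for these letters. The letters are the cell cycle homology region (TTTGAA), which only HMMR of the 4 holds, and the box bound by NF-Y (CCAAT), which all 3 hold. CENPI holds neither and is not shown. Both motifs were searched on both strands in the 250 bases before the RefSeq start (GRCh38.p14). TTTGAA was found in 17 of 34 mitotic promoters (50%) against 8.72% of 11587 promoters of tested genes, and CCAAT in 23 of 34 (67.6%) against 35.0%. The windows are HMMR at chr5:163460382-163460631, plus strand, SPC24 at chr19:11155783-11156032, minus strand and CCNA2 at chr4:121823884-121824133, minus strand, written 5′ to 3′ along the gene. Capitals mark matches to either motif or its reverse complement, which describes the letters and not a bound site.
HMMR: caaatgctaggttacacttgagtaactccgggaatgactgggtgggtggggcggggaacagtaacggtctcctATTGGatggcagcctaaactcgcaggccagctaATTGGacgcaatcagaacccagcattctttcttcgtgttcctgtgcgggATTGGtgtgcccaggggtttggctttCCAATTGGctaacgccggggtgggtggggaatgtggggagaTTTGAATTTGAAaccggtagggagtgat
SPC24: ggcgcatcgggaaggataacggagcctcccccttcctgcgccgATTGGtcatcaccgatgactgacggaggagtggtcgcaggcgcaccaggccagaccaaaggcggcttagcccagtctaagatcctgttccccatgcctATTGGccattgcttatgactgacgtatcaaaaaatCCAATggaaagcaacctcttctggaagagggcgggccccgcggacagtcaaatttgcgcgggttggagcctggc
CCNA2: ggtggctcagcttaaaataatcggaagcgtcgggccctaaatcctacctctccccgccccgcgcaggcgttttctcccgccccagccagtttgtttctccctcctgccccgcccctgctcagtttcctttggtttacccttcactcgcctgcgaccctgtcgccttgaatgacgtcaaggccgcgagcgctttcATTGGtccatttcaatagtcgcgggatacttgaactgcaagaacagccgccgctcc

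Replication genes (origin licensing, helicase, polymerase and clamp loader subunits) were higher for 33 of 36 tested members (91.7%, beside 18.2% over all genes tested). They were lower for 1, with a median of 0.57. The exception was CDT1, a licensing factor, at -0.27. CLSPN, the checkpoint adaptor claspin, had 20.2, 21.96 and 25.99 CPM in CC and 55.0, 58.7 and 56.7 CPM in RC (log2 fold change 1.32, SE 0.12, adjusted p 2.1e-05). GINS1 of the replicative helicase (1.03) and RFC5 of the clamp loader (0.94) were the other members beyond 1.5-fold. All 3 lay below CC in TC, and CC did not overlap RC in any.

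In the promoters of replication genes, the letters TTTCCCGC of an E2F site were found in 7 of 31 (22.6%) against 2.2% of promoters of tested genes, and TTTGGCGC in 3 of 31 (9.68%) against 0.837%. CLSPN, GINS1 and RFC5 held neither in this window.

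Homologous recombination and Fanconi genes were higher for 21 of 31 tested members (67.7%, beside 18.2% over all genes tested). They were lower for 0, with a median of 0.64. RAD54L, a recombination motor protein gene, had 18.4, 22.4 and 20.5 CPM in CC and 43.3, 45.1 and 39.6 CPM in RC (log2 fold change 1.06). RAD54B (1.13) and FANCA (0.99) were the others beyond 1.5-fold, and the RC libraries of all 3 lay above all CC libraries. Among cyclins and their inhibitors 9 of 22 were higher (40.9%) and 4 were lower (18.2%, near the background of 19.1%), with a median of 0.22. CCND3, the G1 cyclin D3 gene, rose from between 45.0 and 56.0 CPM to between 87.9 and 102 CPM, while CDKN1A, which encodes the inhibitor p21, fell from 86.4, 91.7 and 105 CPM to 50.4, 49.2 and 49.1 CPM. RBL1, E2F7 and CDKN2C were among the other members higher, and CDKN2A, CDKN1B and RBL2 among those lower.

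**Figure D4:**
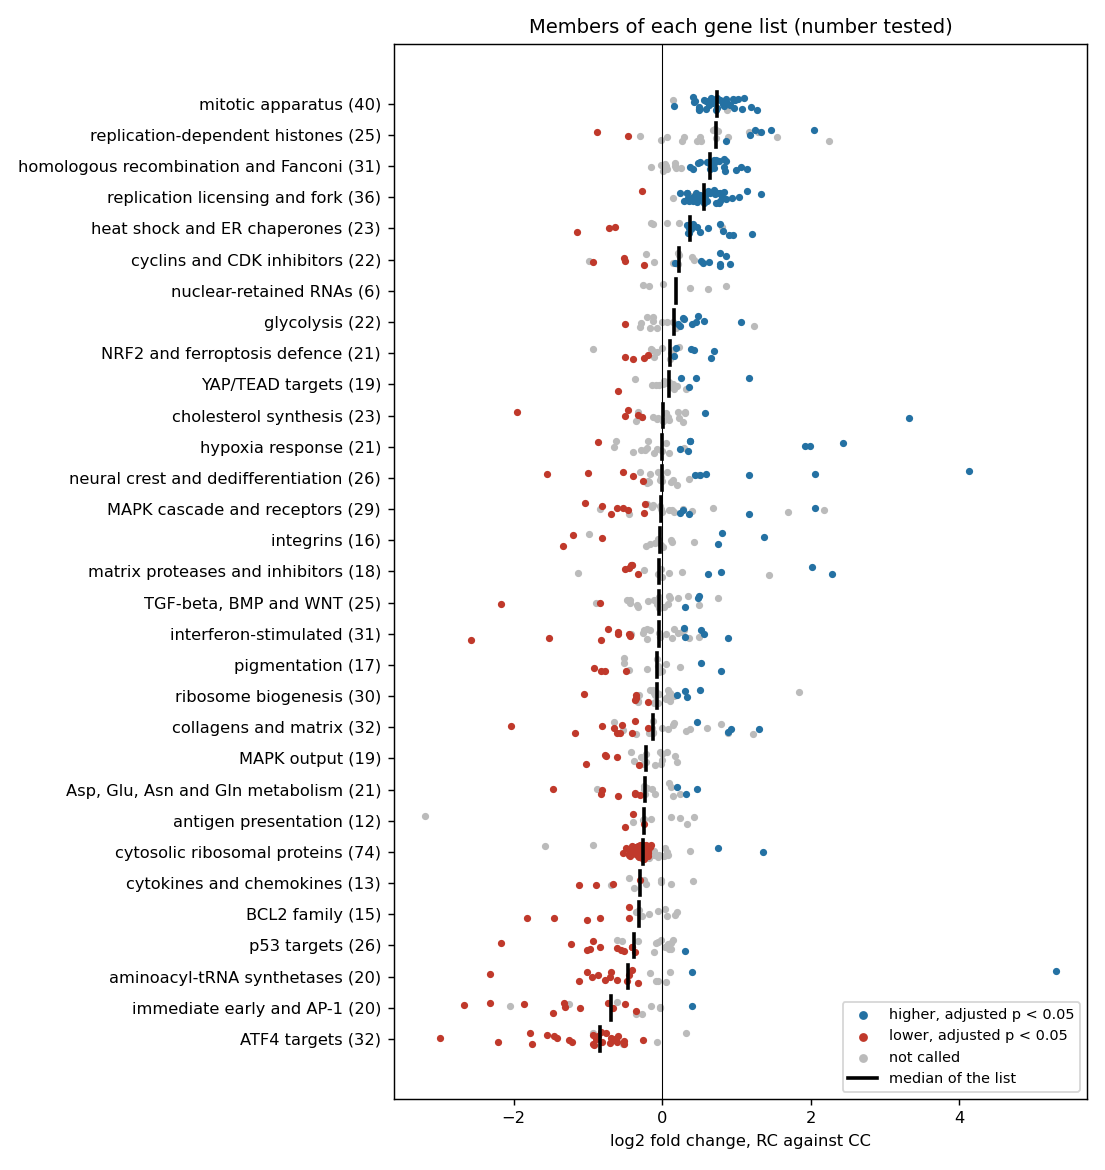
Log2 fold change of RC against CC for the tested members of each gene list (points, number tested in brackets) and the median of the list (black bar); blue and red points passed the test at an adjusted p under 0.05. The highest medians are those of the mitotic, histone, recombination and replication lists, and the lowest of the lists drawn is that of ATF4 targets, -0.84; the point at 5.30 is VARS1, whose value rests on 1 RC library.

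Replication-dependent histone genes, whose mRNAs mostly lack a poly(A) tail, were counted at low levels in CC and RC, for a cause that was not tested. Of 46 members 25 were tested, with a median of 0.72. Of these, 6 were higher (24%) and 2 were lower (8%), beside 18.2% and 19.1% over all genes tested. The summed level of the 46 members was 13.6 to 22.3 CPM in CC and 27.1 to 31.6 CPM in RC. TC and PC were far higher, at 266 to 279 CPM. H2AC11 had 0.296, 0.474 and 0.233 CPM in CC and 0.960, 0.997 and 0.832 CPM in RC (log2 fold change 1.47), and H4C12 had at most 0.148 CPM in CC and 0.285 to 0.640 CPM in RC (2.04). H3C6 and H2AC6 were the members lower. Levels under 1 CPM leave these folds imprecise.

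Targets of ATF4, the transcription factor of the amino acid and integrated stress response, had the lowest median of the lists with at least 10 tested members. Of 32 tested members 27 were lower and 0 were higher, with a median log2 fold change of -0.84, beside 19.1% lower over all genes tested. In 17 of the 32 all RC libraries lay below all CC libraries, beside 23.5% of all genes tested. Beyond 1.5-fold 6 were lower, beside 2.52% of all genes tested: NUPR1, ALDH1L2, CBS, TRIB3, DDIT3 and PHGDH. NUPR1, a stress-induced chromatin protein gene, had 258, 123 and 236 CPM in CC and 10.8, 20.7 and 45.9 CPM in RC (log2 fold change -2.99, SE 0.44, adjusted p 0.00034). TRIB3, a pseudokinase gene induced by this response, had 257, 106 and 289 CPM in CC and 48.3, 73.8 and 100.3 CPM in RC, so that its nearest libraries were close (log2 fold change -1.55, SE 0.32, adjusted p 0.0026).

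Libraries varied together in this list in both groups. The median per library, relative to the CC mean, was 0.15, -0.44 and 0.27 in CC and -0.995, -0.85 and -0.53 in RC, and CC replicate 2 was the nearest to RC. Without CC replicate 3 the median was -0.67 with 17 members lower and 1 higher, and over all alternatives it ran from -1.02 to -0.67. With only the 6 RC and CC libraries in the fit, 19 members were lower, at a median of -0.84. DDIT3, which encodes the stress factor CHOP, had 88.8, 75.7 and 89.3 CPM in CC and 22.6, 32.3 and 39.6 CPM in RC. PHGDH, the first enzyme of serine synthesis, had 322, 239 and 316 CPM in CC and 104, 123 and 142 CPM in RC. ATF4 itself had 615, 533 and 769 CPM in CC and 292, 326 and 389 CPM in RC (log2 fold change -0.93). For DDIT3, PHGDH and ATF4 the groups were well apart, and TC and PC were lower still.

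ALDH1L2, a mitochondrial folate enzyme gene, had 33.9, 12.7 and 28.0 CPM in CC and 3.13, 5.27 and 7.60 CPM in RC (log2 fold change -2.21). CBS, the cystathionine synthase of the sulfur amino acid pathway, has a near-identical copy, CBSL, and reads of the pair cannot be told apart with certainty. The sum of both was 40.1, 21.6 and 54.4 CPM in CC and 6.94, 9.84 and 11.5 CPM in RC. JDP2, an AP-1 family repressor gene that the naming rule drew from all genes, had a like spread, with 16.1, 8.29 and 15.2 CPM in CC and 1.33, 2.30 and 4.41 CPM in RC. The letters TGATGNAA of a binding site of ATF4 with C/EBP were found, on either strand, in 3 of 26 promoters of the list (11.5%) against 1.54% of promoters of tested genes. CHAC1, a glutathione-degrading enzyme gene that fell by 1.46 on the log2 scale (adjusted p 0.029), is shown as the lowest of these 3 (chr15:40953221-40953470, plus strand, GRCh38.p14, the match in capitals).
CHAC1: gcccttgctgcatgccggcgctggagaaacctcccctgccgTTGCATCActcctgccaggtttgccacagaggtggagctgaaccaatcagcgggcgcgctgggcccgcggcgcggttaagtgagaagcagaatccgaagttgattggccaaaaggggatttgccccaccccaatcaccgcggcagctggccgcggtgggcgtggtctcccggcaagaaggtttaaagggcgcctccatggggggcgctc

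Cytosolic aminoacyl-tRNA synthetases, which charge tRNAs and are in part ATF4 targets, were lower for 13 of 20 members and higher for 2 (median -0.46). These shares were 65% and 10%, beside 19.1% lower and 18.2% higher over all genes tested. WARS1, the tryptophanyl enzyme, had 616, 389 and 548 CPM in CC and 199, 236 and 277 CPM in RC (log2 fold change -1.12, SE 0.15, adjusted p 0.00018). SARS1, the seryl enzyme, had 642, 460 and 606 CPM in CC and 232, 283 and 331 CPM in RC (-1.01). AARS1, GARS1 and CARS1 fell by 0.95, 0.87 and 0.77. VARS1, listed as higher, had 24.0 CPM in RC replicate 2 and at most 0.361 CPM in the other 5 libraries, so its call rests on 1 library. Genes of aspartate, glutamate, asparagine and glutamine metabolism were lower for 7 of 21 (33.3%) and higher for 3 (14.3%). Their median was -0.23, with ALDH4A1 at -0.81 and ADSL at -0.37.

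**Figure D5:**
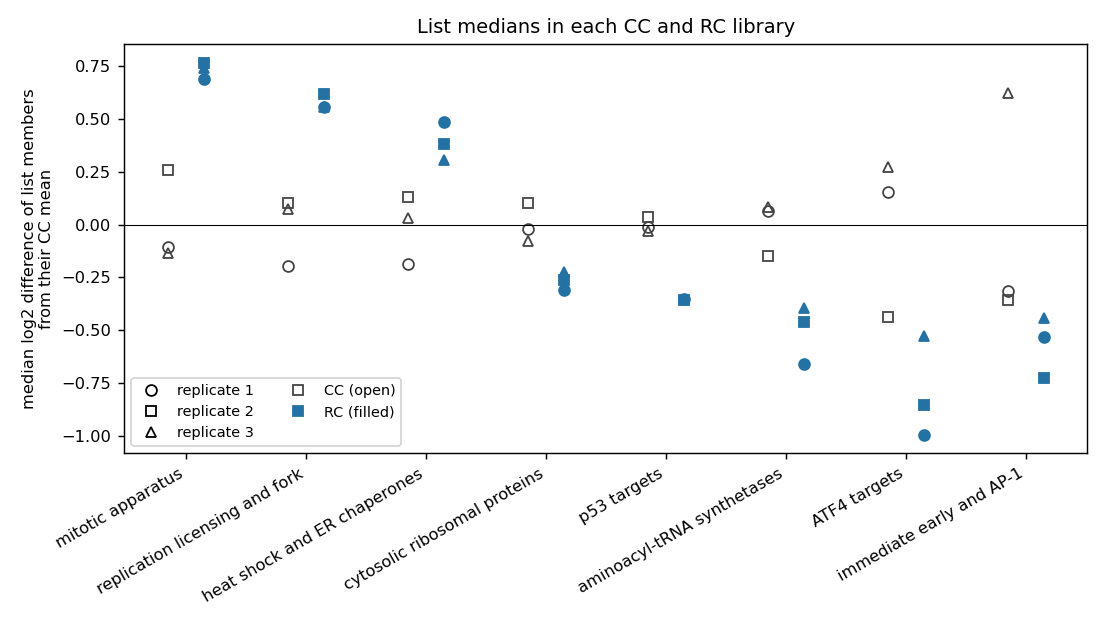
Median, over the members of a list, of the log2 difference from each member's CC mean (y axis) in each of the 3 CC (open) and 3 RC (filled) libraries, for 8 lists; symbols stand for replicate numbers. Mitotic, replication, chaperone, ribosomal protein, p53 and synthetase lists separate the groups, ATF4 targets do so with CC replicate 2 at -0.44 and RC replicate 3 at -0.53, and immediate early genes do so with RC between -0.73 and -0.44 and CC replicates 1 and 2 at -0.31 and -0.36, close to RC, while CC replicate 3 is at 0.62.

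Targets of p53, the tumour suppressor that halts the cell cycle after stress, were lower for 12 of 26 tested members and higher for 1 (median -0.39). The share lower was 46.2%, beside 19.1% over all genes tested. The per-library medians lay between -0.36 and -0.35 in RC and between -0.03 and 0.04 in CC. GDF15, a secreted stress cytokine that ATF4 also controls, had 1049.6, 786 and 1584 CPM in CC and 231, 248 and 282 CPM in RC (log2 fold change -2.17, SE 0.28, adjusted p 0.00014). BBC3, which encodes the BH3-only protein PUMA, had 36.9, 36.6 and 35.5 CPM in CC and 16.3, 16.1 and 21.5 CPM in RC (-1.02). CDKN1A, given above, was the other member beyond 1.5-fold, and all 3 had RC libraries below every CC library.

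In the BCL2 family of apoptosis regulators 6 of 15 were lower (40%, beside 19.1% over all genes tested) and 0 higher, with a median of -0.32. The members lower were mostly pro-apoptotic BH3-only genes. BMF had 69.1, 62.1 and 52.1 CPM in CC and 14.7, 16.7 and 20.2 CPM in RC (log2 fold change -1.83, SE 0.14, adjusted p 1.1e-05), whereas TC and PC held 199 to 277 CPM. HRK, BBC3, PMAIP1 and BCL2L11 were the other such genes lower, and BCL2L2, an anti-apoptotic member, fell by 0.45.

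Cytosolic ribosomal protein genes were lower for 54 of 74 tested members (73.0%) and higher for 2, by small amounts (median -0.27, and 0 beyond 1.5-fold). RPL13A had 3305, 3450 and 3209 CPM in CC and 2320, 2259 and 2328 CPM in RC (log2 fold change -0.53, SE 0.05, adjusted p 3.0e-05), and RPL4 changed by -0.50. RPS26 and RPS10, the members higher, belong to families with many processed copies, and RPS10 was at most 1.11 CPM. Ribosome biogenesis genes showed no common direction, with 4 higher (13.3%) and 5 lower (16.7%) of 30, beside 18.2% and 19.1% over all genes tested. Their median was -0.07, with BOP1 at 0.51 and POLR1E at -0.35. The mitochondrial ribosomal RNAs RNR1 and RNR2, the genes of the mitochondrial list that were tested (2 of 15), changed by -0.33 and -0.55, and RNR2 had 20357, 19202 and 12317 CPM in CC, its lowest close to the RC range of 11590 to 12083 CPM. The RNR1 libraries of the groups overlapped, and the call was kept in 8 of 13 alternatives for RNR1 and in 10 of 13 for RNR2 (adjusted p up to 0.0721 and 0.0773).

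In the list of heat shock and endoplasmic reticulum chaperones 14 of 23 were higher and 3 were lower (median 0.37). The share higher was 60.9%, beside 18.2% over all genes tested, and the share lower was under the background of 19.1%. HSP90AA1, the inducible cytosolic HSP90, had 1477, 2328 and 1778 CPM in CC and 4208, 4486 and 4194 CPM in RC (log2 fold change 1.21, SE 0.13, adjusted p 4.6e-05), and TC and PC lay between 1494 and 1859 CPM. HSPE1, HSPH1, DNAJB1 and HSPA8 rose by 0.95, 0.90, 0.78 and 0.61. The members lower were DNAJB9, XBP1 and HERPUD1, genes of the unfolded protein response, and DNAJB9 had 27.5, 21.6 and 33.2 CPM in CC and 12.6, 11.7 and 12.8 CPM in RC (-1.15). Reticulum genes were also among the 14 higher (CALR, PDIA4, MANF, CRELD2 and SDF2L1), so that members of that compartment moved both ways.

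In the MAPK output list, of genes that respond to ERK, 5 of 19 tested members were lower (26.3%, beside 19.1% over all genes tested) and 0 higher (median -0.22). The members lower were SPRY1, SPRY2, SPRY4, EPHA2 and IL1RAP, and none was beyond 1.5-fold. SPRY1, a feedback inhibitor of receptor signalling, had 39.2, 46.0 and 67.8 CPM in CC and 23.7, 23.9 and 27.2 CPM in RC (log2 fold change -1.03, SE 0.17, adjusted p 0.00057), and at most 0.674 CPM in TC and PC. SPRY2 changed by -0.77. Without CC replicate 3 the median of the list was 0.11, with 3 members lower and 3 higher, so its direction depended on that library.

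Immediate early genes, which transcribe within minutes of a stimulus, were lower for 11 of 20 members and higher for 1, FOSL2 (median -0.70). The share lower was 55%, beside 19.1% over all genes tested. Without CC replicate 3 the median was -0.24, with 8 lower and 2 higher. EGR1 had 16.9, 19.7 and 182 CPM in CC and 33.4, 20.04 and 37.8 CPM in RC and was not called (adjusted p 0.18). NR4A3, an orphan nuclear receptor gene, had 11.6, 9.33 and 28.8 CPM in CC and 2.44, 2.39 and 2.97 CPM in RC (log2 fold change -2.67, SE 0.44, adjusted p 0.00064). JUN, the AP-1 subunit, was stable within groups, with 48.9, 43.96 and 47.3 CPM in CC and 20.6, 19.0 and 16.8 CPM in RC (-1.31, SE 0.08, adjusted p 2.2e-06), whereas TC held 936 to 968 CPM.

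Genes of the cascade itself and of receptors were higher for 5 of 29 (17.2%) and lower for 8 (27.6%), beside 18.2% and 19.1% over all genes tested (median -0.02). NGFR and AXL, given above, were the members beyond 1.5-fold. BRAF and EGFR fell by 0.60 and 0.81.

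Melanoma markers were expressed in both groups, several of them lower in RC. SOX10, the master factor of the melanocyte lineage, had 662, 650 and 664 CPM in CC and 564, 554 and 539 CPM in RC (log2 fold change -0.25, SE 0.05, adjusted p 0.0026; 13 of 14 alternatives kept the call). Of 12 defining markers 10 were tested, 6 were lower (60%, beside 19.1% over all genes tested) and 0 were higher (median -0.37), and PRAME and MIA were at most 0.208 CPM. CSPG4, a melanoma proteoglycan, had 1894, 1242 and 1950 CPM in CC and 940.0, 899.7 and 923 CPM in RC (-0.88). The summed level of the markers was 3910 to 5069 CPM in CC and 3281 to 3463 CPM in RC.

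Markers of other cell types ranged from 0 to clear levels. COL3A1 and THY1 of fibroblasts, KRT5 and KRT19 of epithelia, CD3E of T cells and CDH5 of endothelium had no counts in any CC or RC library. The summed level was 51.1 to 65.7 CPM in CC and 45.6 to 50 CPM in RC for 7 fibroblast markers, 15.9 to 18.1 and 12.05 to 12.3 CPM for 6 epithelial markers, 128 to 175 and 120 to 133 CPM for 6 leukocyte markers, of which CD68 gave nearly all, and 9.61 to 12.1 and 5.01 to 6.40 CPM for 4 endothelial markers. The fibroblast markers LUM and PDGFRB held 25.2 to 33.1 and 7.28 to 13.9 CPM in CC. Of the tested markers of these types, PDGFRB (-1.05), LUM (-0.54) and KDR (-1.57) were lower and 0 were higher. The keratin gene KRT14 was counted in single libraries only, at most 0.0492 CPM. In these bulk samples fewer cells of a state and less RNA per cell cannot be told apart.

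Pigment genes were higher for 2 of 17 (11.8%) and lower for 4 (23.5%), beside 18.2% and 19.1% over all genes tested. Their median was -0.07, with the melanocortin receptor gene MC1R at 0.79 and TYRP1 at -0.77. In the list of neural crest and dedifferentiation genes 6 of 26 were higher (23.1%) and 5 were lower (19.2%), near the background in both directions (median -0.01). Besides SOX2, NGFR and AXL, the members beyond 1.5-fold were TFAP2B and FOXD3, transcription factors of the neural crest. TFAP2B had 85.0, 69.5 and 83.2 CPM in CC, 2.18 to 3.73 CPM in TC and PC and 26.6, 24.8 and 29.95 CPM in RC (log2 fold change -1.55). FOXD3 had 22.6, 25.8 and 25.2 CPM in CC, 105 to 139 CPM in TC and PC and 13.02, 10.9 and 12.9 CPM in RC (-0.998). Members of this list therefore lay on both sides of CC.

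Counts in the matrix and adhesion lists are read beside 18.2% higher and 19.1% lower over all genes tested. Collagen and matrix genes were higher for 4 of 32 (12.5%) and lower for 10 (31.3%; median -0.13), with THBS1, COL27A1 and COL16A1 (0.89) the members higher beyond 1.5-fold and COL15A1 (-1.18) the member lower. Proteases and their inhibitors were higher for 4 of 18 (22.2%), ADAM19 and MMP8 among them, and lower for 5 (27.8%; median -0.04). Of 16 integrin subunits 3 were higher and 3 lower (18.8% each), which is the background share. ITGA10, a collagen-binding subunit gene, had 55.0, 37.2 and 43.5 CPM in CC, at most 0.671 CPM in TC and PC and 18.7, 16.4 and 18.7 CPM in RC (-1.34), and the laminin-binding ITGA7 changed by -1.21. YAP/TEAD targets were higher for 4 of 19 (21.1%, near the background) and lower for 1 (median 0.09). TGF-beta, BMP and WNT genes were higher for 3 of 25 (12%) and lower for 2 (8%, median -0.04). Among them NOTUM, a WNT-inactivating enzyme gene, was at -2.17 from under 0.9 CPM in CC.

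Beside 18.2% higher and 19.1% lower over all genes tested, glycolysis genes were higher for 9 of 22 (40.9%) and lower for 1 (4.55%, median 0.16). PGAM1, a phosphoglycerate mutase gene, had 242, 333 and 277 CPM in CC and 605, 597 and 579 CPM in RC (log2 fold change 1.06, SE 0.10, adjusted p 2.8e-05), and LDHA was read at most at 1.03 CPM while its numbered copy held 3.38 to 11.2 CPM, so its level is not known here. Hypoxia response genes were higher for 7 of 21 (33.3%) and lower for 1 (4.76%, median -0.00). Among them ANGPTL4, a lipase inhibitor gene, was at 1.92, with a level of 2.60 to 3.40 CPM in RC. Cholesterol synthesis genes were higher for 2 of 23 (8.70%) and lower for 5 (21.7%, near the background), with a median of 0.01. NSDHL was called on 1 library (16.2 CPM in RC replicate 3 and at most 1.06 CPM in the other 5). Genes of NRF2 and of ferroptosis defence were higher for 6 of 21 (28.6%) and lower for 4 (19.0%, near the background). Their median was 0.10, with TXNRD1 at 0.38 and TKT at -0.50.

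Counts in the immune lists are small and are read beside the same background of 18.2% higher and 19.1% lower. Interferon-stimulated genes were higher for 5 of 31 (16.1%) and lower for 9 (29.0%; median -0.05), with BST2, which encodes the antiviral protein tetherin, at 2.07, 1.63 and 1.84 CPM in CC and 0.295, 0.303 and 0.321 CPM in RC (log2 fold change -2.58). In the cytokine and chemokine list 4 of 13 genes were lower (30.8%) and 0 were higher (median -0.30). RELB, a transcription factor gene in that list, was at -0.89. IL24 had 399 to 582 CPM in CC and 311 to 318 CPM in RC and was at -0.67. Antigen presentation genes were lower for 3 of 12 (25%, near the background) and higher for 0 (median -0.25), ERAP1 and NLRC5 among them at -0.40 and -0.50. Transcripts retained in the nucleus, a sign of nuclear leakage into the cytoplasmic fraction, had adjusted p from 0.0895 to 0.94 in the 6 members tested and a median of 0.19. MALAT1 was at most 1.59 CPM, and the summed level of the list was 455 to 575 CPM in CC and 451 to 486 CPM in RC.

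Base composition moved with the calls in 1 direction. Genes lower beyond 1.5-fold had a median GC content of 54.7%, against 48.4% for genes higher and 48.0% for all tested (longest GENCODE v44 transcript, matched by symbol for 14050 tested genes). Among 5 bins of equal size, the bin of highest GC content (57.96% and above) had 150 of 2810 genes that were lower beyond 1.5-fold (5.34%), and the other bins held between 45 and 75 such genes. With GC and length offsets, an alternative chosen after seeing the data, 376 genes were lower and 275 were higher beyond 1.5-fold of the 14050, of which 341 and 188 were called without the offsets. The part of GC content in single results was not tested.

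The median log2 fold change of the genes of a chromosome ran from -0.06 (chromosome 18) to 0.06 (chromosome 21), and the share called beyond 1.5-fold ran from 2.14% on chromosome 13 to 5.31% on chromosome 14.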

How the data were processed

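The deposited table holds raw read counts per gene for 12 libraries. Per the labels and methods, the authors trimmed reads with fastp 0.20.1, aligned them to GRCh38.p13 with HISAT2 2.2.1 and counted them with HTSeq 0.13.5. The strand setting and the treatment of reads with several matches were not given in the sources used here.

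Genes with a mean scaled count of at least 10 were fitted in 1 edgeR 4.0.16 quasi-likelihood model (R 4.3.3, TMM factors, a mean per group, 8 residual degrees of freedom), and RC was contrasted with CC by glmQLFTest and by glmTreat at 1.5-fold, both two-sided. Standard errors came from the F statistic. CPM use TMM-scaled totals, and log2 ranges use CPM plus 0.1. A count of 3 equals 0.0540 to 0.0794 CPM, for counting error only. No 2 libraries of a group were alike within sampling noise. The procedure was tested on simulated data.

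Named genes were the 15 largest rises and falls beyond 1.5-fold (mean normalised count of at least 100, no overlap, no numbered copy), up to 4 members per list beyond 1.5-fold (otherwise 2 with the smallest adjusted p) and the 6 widest CC ranges. EGR1, VARS1, SPC25, LDHA, CHAC1, ATF4 and further list members were named after their values were seen. The comparison and the 37 lists, written from general knowledge, were chosen with earlier results of these data known. Promoter sequences are RefSeq's (GRCh38.p14).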

Additional observations from a re-analysis of the deposited data

How the results depend on the processing

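The 4 counts were recomputed under 14 alternatives. DESeq2 1.42.0 called 143 genes higher beyond 1.5-fold, of which 140 were among the 215. Leaving out 1 library gave from 117 to 376 genes higher and from 226 to 524 lower beyond 1.5-fold, and the counts at an adjusted p under 0.05 stayed within 1.5 times. All other counts stayed within 1.5 times under DESeq2, RLE factors, library totals, both other filters, the 6 RC and CC libraries alone (150 higher and 275 lower beyond 1.5-fold) and GC and length offsets (added after seeing the data). The column names share suffixes across groups, and the labels do not say that same-numbered libraries were paired. Deviations of same-numbered CC and RC libraries correlated between -0.0320 and 0.0245, and CC replicate 1 correlated best with RC replicate 3. These values over all tested genes do not decide whether replicates were paired. With the replicate block there were 2956 higher and 3008 lower genes, and 229 and 403 beyond 1.5-fold.

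Of the values of named genes, 1434 kept their direction and side of the threshold, 9 lost the call, 5 gained it and 10 reversed. The 10 belong to genes not called: KRT14 (2.57 without CC replicate 2, 0.46 without RC replicate 2 and 0.42 without RC replicate 3, with a range over libraries left out from -2.70 to 2.57), the log2 fold change of UBE2A (0.69 without CC replicate 2 and 0.39 without RC replicate 2, range -0.973 to 0.69), PSMB3_1 (-2.89 without RC replicate 2, range -2.89 to 4.17), DNAJA3_1 (-0.40 without RC replicate 2, range -0.40 to 3.45) and CD99_1 (-0.52 without CC replicate 1, -0.15 without RC replicate 1 and -0.35 without RC replicate 2, range -0.52 to 0.69). Calls were lost only by RNR1, RNR2 and SOX10. List medians moved by less than the spread between libraries in 492 of 517 recomputations, and the mitochondrial list could not be recomputed with the offsets. The cause was not tested. Depth limits levels near 0.08 CPM.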
